A study of Mus musculus with 12 samples.

Results

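The 31 genes described here are genes of T cells, natural killer (NK) cells and B cells, the lymphocytes of the immune system. They were taken by name from the TPM table of D2A1 mouse mammary carcinoma cells sorted from mouse lungs, and immunoglobulin segments were not among them. All 31 were found among the 54146 genes of the table, of which 25916 were above 0 in at least 1 library. The members were 8 genes of the T cell antigen receptor and its co-receptors, 6 genes of T cell adhesion, kinases and survival, 5 cytotoxic effectors, 4 NK receptors, 6 genes of the B cell receptor and B cell surface, and 2 genes of antibody secretion. The rule that set them names genes and no threshold on their values.

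T cells recognize antigen through a receptor of variable chains that signals through the CD3 proteins. NK cells and cytotoxic T cells kill target cells with granules that hold perforin and granzymes, and NK cells read the state of a target through activating and inhibitory surface receptors. B cells carry an antibody as their receptor, which signals through CD79A and CD79B, and after activation they can become cells that secrete antibody. In the lung these lymphocytes are found among the blood, the vessels and the tissue, and none of the 3 classes is a tumour cell.

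The tumour line expressed H2B-GFP, a fluorescent histone, whose production is switched on by doxycycline, and was stained with CellVue Claret, a membrane dye that is diluted by division. The cells were injected into the tail vein, and GFP-positive cells were sorted from the lungs as dormant where the dye was kept and as growing where it was lost. The hosts were WT mice (floxed controls without the deletion) and KO mice, in which Cre under the Lysozyme 2 promoter (LysM-Cre) had deleted Tgfbr2 in myeloid cells. The study used young adult females. The injected tumour cells were not deleted for Tgfbr2, and both kinds of host were immune-competent. There were 4 groups of 3 libraries each, named by state and host (dormant or growing, WT or KO). The study describes each group's libraries as coming from separate mice, whereas the labels do not tie a library to an animal, and p-values measure the spread between these libraries. All WT libraries were of library batch 1 and all KO libraries of library batch 2, and host and batch cannot be told apart. RNA came from pooled sorted cells, in which fewer cells of a type and less RNA per cell cannot be told apart. The sort was on GFP and dye, and lymphocytes carry no GFP of their own.

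Genes above 0 numbered 11325 to 13242 in dormant WT, 14770 to 15315 in dormant KO, 14352 to 14475 in growing WT and 13406 to 14063 in growing KO libraries. Transcripts missing from single libraries were more frequent in dormant WT. Among 2786 genes that had at least 10 TPM in each of the 9 libraries of the other groups, 2.297%, 7.968% and 5.599% were listed at 0 in dormant WT replicates 1, 2 and 3, whereas the corresponding share was at most 0.324% in any library of the other groups. Of 8536 genes with at least 10 TPM in 1 dormant WT library, 38.64% were listed at 0 in another library of that group, among them 3 of the 4 members at that level. The corresponding shares were 6.12% (dormant KO), 1.23% (growing WT) and 2.6% (growing KO). A value of 0 is therefore given as listed at 0, and no fold is stated against a group listed at 0. Of a list of mammary carcinoma markers, Krt8 (52.08 to 380.95 TPM), Krt18 (130.6 to 518.77 TPM) and Vim (371.68 to 932.02 TPM) were present in all 12 libraries, whereas Epcam did not exceed 5.34 TPM in any. Which cells these transcripts came from was not tested. Spp1, the most abundant gene of the list, differed by −4.66 ± 0.09 (SE) on the log2(TPM + 1) scale between dormant KO and dormant WT (adjusted p = 5.2e-11, limma).

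To show the start regions of members whose values are described below, the promoter windows of RefSeq (build GRCm38.p6, 250 bases before to 50 bases after the gene start, each 300 bases long) were read, and 22 of the 31 members had an entry. Cd3g and Cd3d lie side by side on chromosome 9 and are read in opposite directions, with 1355 bases between their 5′ ends in GENCODE M21. Their windows are at chr9:44980382-44980681, minus strand and chr9:44981536-44981835, plus strand. Gzma (chr13:113100932-113101231, minus strand), Nkg7 (chr7:43436888-43437187, plus strand) and Ncr1 (chr7:4337465-4337764, plus strand) stand for the cytotoxic and NK members, and Cd79a (chr7:24897247-24897546, plus strand) for the B cell receptor. Each sequence runs 5′ to 3′ on the gene's strand, and capitals mark matches on either strand to the ETS core GGAAGT or the RUNX core TGTGGT, motifs named for transcription factor families that act in blood cells.
Cd3g: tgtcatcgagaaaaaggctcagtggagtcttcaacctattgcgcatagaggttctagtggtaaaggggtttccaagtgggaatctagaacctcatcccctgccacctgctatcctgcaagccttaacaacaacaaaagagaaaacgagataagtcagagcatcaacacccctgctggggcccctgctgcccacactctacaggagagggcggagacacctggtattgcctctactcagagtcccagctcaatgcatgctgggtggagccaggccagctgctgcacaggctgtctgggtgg
Cd3d: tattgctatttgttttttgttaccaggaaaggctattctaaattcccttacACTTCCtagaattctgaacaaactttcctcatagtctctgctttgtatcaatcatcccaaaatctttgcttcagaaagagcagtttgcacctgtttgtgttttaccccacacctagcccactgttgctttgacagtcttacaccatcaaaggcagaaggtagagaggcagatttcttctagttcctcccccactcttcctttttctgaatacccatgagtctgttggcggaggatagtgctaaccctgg
Gzma: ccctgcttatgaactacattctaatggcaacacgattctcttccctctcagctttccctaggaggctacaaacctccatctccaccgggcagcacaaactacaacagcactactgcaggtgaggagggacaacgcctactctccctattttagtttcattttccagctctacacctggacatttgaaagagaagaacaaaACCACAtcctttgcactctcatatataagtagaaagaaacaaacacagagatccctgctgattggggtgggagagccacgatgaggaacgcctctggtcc
Nkg7: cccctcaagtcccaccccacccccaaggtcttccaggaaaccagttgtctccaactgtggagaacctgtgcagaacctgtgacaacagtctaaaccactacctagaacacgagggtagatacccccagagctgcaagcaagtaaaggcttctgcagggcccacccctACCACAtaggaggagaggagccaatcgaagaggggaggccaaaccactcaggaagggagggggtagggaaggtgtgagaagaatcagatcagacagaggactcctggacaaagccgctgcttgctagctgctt
Ncr1: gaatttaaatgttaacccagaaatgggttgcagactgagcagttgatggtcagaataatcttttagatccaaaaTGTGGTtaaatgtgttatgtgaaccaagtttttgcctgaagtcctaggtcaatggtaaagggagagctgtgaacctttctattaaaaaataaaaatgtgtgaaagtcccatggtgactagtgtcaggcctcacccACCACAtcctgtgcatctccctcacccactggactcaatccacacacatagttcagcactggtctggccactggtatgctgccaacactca
Cd79a: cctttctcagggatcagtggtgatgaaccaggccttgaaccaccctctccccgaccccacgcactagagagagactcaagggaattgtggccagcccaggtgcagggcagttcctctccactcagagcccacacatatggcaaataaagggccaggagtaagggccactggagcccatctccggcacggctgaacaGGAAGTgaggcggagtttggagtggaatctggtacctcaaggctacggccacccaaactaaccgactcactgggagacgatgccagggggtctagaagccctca

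The RUNX core was present in the windows of 7 of the 8 cytotoxic and NK members with an entry (Nkg7, Gzma, Gzmb, Prf1, Klrb1c, Klrk1 and Ncr1, but not Ifng), in 2 of 9 T cell members (Lck and Il7r) and in 0 of 5 B cell members. Of 32851 promoter windows of the same length, 16.8% held it. The ETS core was present in 6 of the 9 T cell members, 2 of the 8 cytotoxic and NK members and 2 of the 5 B cell members, against 23.8% of all windows. No match of one of these motifs overlapped a match of the other in a member's window. The octamer ATGCAAAT was in 0 of 22 members and 1.74% of all windows. The TATA box letters TATAAA were in 3 members and 13.6% of all windows. These are matches of letters, and binding was not measured.

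Across all roles, lymphocyte transcripts were highest in the cells sorted as dormant from KO hosts. The TPM of the 31 members summed to 666.9 to 843.81 in dormant KO libraries, 47.05 to 134.11 in dormant WT, 20.39 to 27.2 in growing WT and 61.38 to 103.99 in growing KO, and the dormant KO range did not overlap any other. At least 1 TPM was reached by 26, 24 and 23 members in dormant KO replicates 1 to 3, by 5, 5 and 4 in dormant WT, by 6, 5 and 7 in growing WT and by 13, 14 and 12 in growing KO. All 3 classes were present in the dormant KO sum, of which T cell members made up 30.41% to 40.58%, NK and cytotoxic members 28.03% to 41.64%, and B cell and antibody secretion members 27.95% to 31.93% of TPM.

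**Figure D1:**
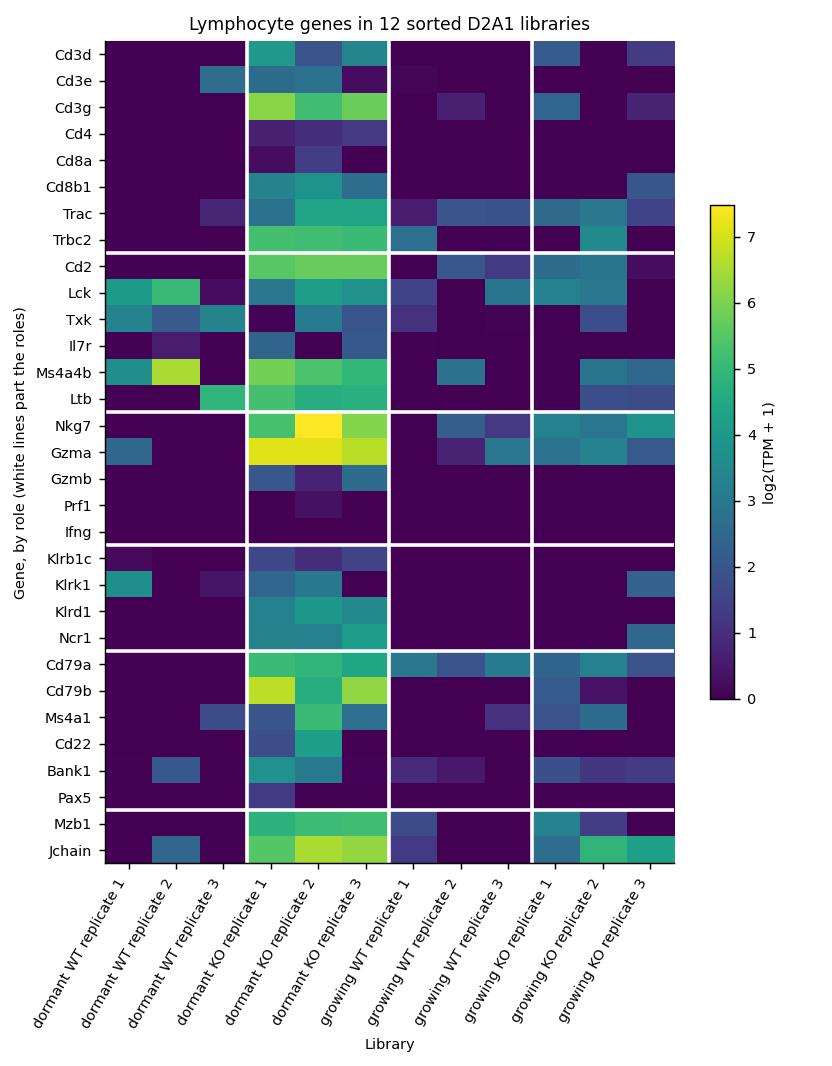
TPM of the 31 lymphocyte genes (rows, parted by role) in the 12 libraries (columns, parted by group), coloured as log2(TPM + 1). The 3 dormant KO columns are filled in all 6 roles, while Ifng is listed at 0 in every library.

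Among the members, levels in dormant KO (mean TPM, a measure per transcript length) were ordered Gzma, Nkg7, Jchain, Cd79b, Cd3g, Cd2, Ms4a4b, Trbc2, Mzb1, Ltb and Cd79a from 127 to 27.5 TPM, and then Trac at 15.1 TPM. Neighbours in this order overlapped in their library values throughout, except Cd79a (20.39 to 33.39 TPM) and Trac (6.04 to 19.8 TPM). Gzma, the most abundant member, ranked 1007 by mean TPM among all genes in that group.

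Setting dormant KO against dormant WT asks how the host's myeloid Tgfbr2 relates to transcripts of cells that kept the dye. Of 22 members that passed the filter (1 TPM or more in 3 or more libraries), 14 were called higher in dormant KO and 0 lower, where a call needs an adjusted p of at most 0.05 and a difference of at least 1 on the log2(TPM + 1) scale (limma). Over all 13002 genes tested, 12.9% were called higher and 9.39% lower. The filter itself favours the group with the higher values, since 9 of the 22 members passed only with dormant KO libraries counted, and 9 members (Cd4, Cd8a, Il7r, Gzmb, Prf1, Ifng, Klrb1c, Cd22 and Pax5) were not tested. Without the filter 16 of 31 members were called higher, against 5.64% of 25916 genes. The additional calls were Gzmb (adjusted p = 0.0126) and Klrb1c (adjusted p = 0.000679). With weights per library 9 of the 22 were called, and the calls of Cd8b1 (adjusted p = 0.0508), Cd3d (adjusted p = 0.0525), Ncr1 (adjusted p = 0.0549), Trac (adjusted p = 0.0684) and Trbc2 (adjusted p = 0.119) were lost, while calls over all genes went from 2898 to 1418 of 13002. The median difference without the filter was 2.69 over the 31 members and 0 over all genes. Every dormant KO library lay above every dormant WT library for 18 of 31 members, against 7.6% of all genes, and above all 9 other libraries for 15 members, against 5.49% of all genes.

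The CD3 chains carry the signal of the T cell receptor into the cell. Cd3g (chromosome 9, 44969572 to 44980431, minus strand of GRCm38) had values of 69.73, 35.26 and 54.28 TPM across dormant KO replicates 1 to 3, with each dormant WT library listed at 0 (adjusted p = 6.01e-05). Growing WT had 0, 0.61 and 0 TPM and growing KO 4.41, 0 and 0.69 TPM. Cd3d (chromosome 9, 44981786 to 44987339, plus strand) had values of 15.18, 2.91 and 9.48 TPM across dormant KO libraries, with both WT groups listed at 0 (adjusted p = 0.00272 against dormant WT). Its growing KO values of 3.43, 0.03 and 1.53 TPM overlapped those of dormant KO. The third chain differed from these. Cd3e was at 5.23, 6.12 and 0.19 TPM across dormant KO libraries, against 0, 0 and 5.38 TPM in dormant WT, the groups overlapped, and no difference was called (adjusted p = 0.393). Cd3e overlaps an antisense gene in the annotation, and whether strand was used in counting is not given in the sources used here.

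The constant regions of the receptor chains were likewise higher. Trbc2, which codes for a constant region of the beta chain (chromosome 6, 41546730 to 41548352, plus strand), had values of 37.61, 35.52 and 33.04 TPM across dormant KO libraries, with dormant WT listed at 0 (adjusted p = 0.00235). Single libraries of the growing groups also held it, with 5.60, 0 and 0 TPM in growing WT and 0, 10.99 and 0 TPM in growing KO. Trbc2 and its near copy Trbc1 share sequence, and the split of reads between them is uncertain. Trac, the constant region of the alpha chain, was at 6.04, 19.80 and 19.52 TPM across dormant KO libraries, against 0, 0 and 0.71 TPM in dormant WT, a difference of 3.59 ± 0.65 (SE) on the log2(TPM + 1) scale (adjusted p = 0.00182). Unlike the other chains, Trac was above 0 in all growing libraries, at 0.52, 2.89 and 2.69 TPM in growing WT and 5.05, 6.74 and 1.86 TPM in growing KO.

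The co-receptors, which bind the antigen-presenting molecules, were at unequal levels. Cd8b1 was at 9.13, 13.11 and 5.56 TPM across dormant KO libraries, with dormant WT listed at 0 (adjusted p = 0.000921). Cd8a, whose product pairs with that of Cd8b1, was at 0.19, 1.55 and 0 TPM across dormant KO libraries and no more than 0.02 TPM in any other library. Cd4 was at 0.61, 0.97 and 1.38 TPM across dormant KO libraries and listed at 0 in the 9 other libraries. Neither Cd8a nor Cd4 passed the filter.

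Cd2, an adhesion molecule of T and NK cells (chromosome 3, 101275899 to 101287939, minus strand), had values of 45.49, 52.26 and 52.81 TPM across dormant KO libraries, with dormant WT listed at 0 (adjusted p = 0.000208). Growing libraries stayed at or below 6.45 TPM. The remaining genes of T cell adhesion, kinases and survival were not called. Lck, the kinase next to the receptor, was at 6.82, 17.31 and 13.00 TPM across dormant KO libraries, against 15.82, 31.82 and 0.17 TPM in dormant WT (difference 0.54 ± 1.28, adjusted p = 0.813). Txk, a related T cell kinase, was at 0.05, 7.67 and 2.88 TPM across dormant KO libraries, against 9.17, 3.46 and 9.07 TPM in dormant WT (difference −1.23 ± 0.80, adjusted p = 0.309). The groups overlapped for both kinases, and dormant WT libraries thus held kinase transcripts while Cd3d, Cd3g, Cd2 and Trbc2 were listed at 0. Ms4a4b, a surface protein of T cells, was at 59.20, 39.77 and 30.04 TPM across dormant KO libraries, against 12.34, 90.60 and 0 TPM in dormant WT (adjusted p = 0.368). Ltb, lymphotoxin beta, was at 37.85, 24.36 and 25.66 TPM across dormant KO libraries, against 0, 0 and 29.13 TPM in dormant WT (difference 3.26 ± 1.12, adjusted p = 0.0555). In each of these last genes a single dormant WT library reached the dormant KO values. Il7r, the receptor of the survival factor interleukin 7, was at 4.30, 0 and 3.17 TPM across dormant KO libraries and no more than 0.48 TPM elsewhere.

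Cytotoxic effectors reached the highest levels of any role. Gzma, granzyme A (chromosome 13, 113093825 to 113100981, minus strand), had values of 139.14, 141.26 and 101.79 TPM across dormant KO libraries, against 4.60, 0 and 0 TPM in dormant WT, a difference of 6.16 ± 0.86 (adjusted p = 0.000328). Growing WT had 0, 0.64 and 6.59 TPM and growing KO 6.21, 8.93 and 3.32 TPM. Nkg7, a protein of the cytotoxic granule (chromosome 7, 43437073 to 43438249, plus strand), had values of 38.84, 177.37 and 66.53 TPM across dormant KO libraries, with dormant WT listed at 0 (adjusted p = 7.37e-05). The dormant KO libraries varied more in Nkg7 than in Gzma, with replicate 2 highest. Other effectors of the same granules were low. Gzmb, granzyme B, was at 3.10, 0.69 and 5.24 TPM across dormant KO libraries and listed at 0 in the 9 other libraries, and Prf1, perforin, was at 0.02, 0.27 and 0 TPM and listed at 0 elsewhere. Ifng, interferon gamma, was listed at 0 in all 12 libraries. Granzyme genes are a family of similar sequence, so that the split of reads between them is estimated.

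Of the NK receptors, 2 of the 3 tested were called higher in dormant KO, against 12.9% of all genes. All 3 passed the filter only with dormant KO libraries counted. Without the filter 3 of 4 were called higher, against 5.64% of genes. Klrd1 (CD94), a partner chain of inhibitory and activating receptors, was at 8.76, 14.77 and 11.02 TPM across dormant KO libraries and listed at 0 in the 9 other libraries (adjusted p = 1.35e-05 against dormant WT). This p-value rests on a spread shared by all groups, to which the groups listed at 0 added none. Ncr1 (NKp46), an activating receptor that marks NK cells (chromosome 7, 4337724 to 4345164, plus strand), had values of 9.12, 8.83 and 16.45 TPM across dormant KO libraries, with both WT groups listed at 0 (adjusted p = 0.00114 against dormant WT). One growing KO library held Ncr1, at 4.50 TPM. Klrb1c (NK1.1) was at 2.10, 0.98 and 1.92 TPM across dormant KO libraries and no more than 0.15 TPM elsewhere, and it overlaps another protein-coding gene on the same strand in the annotation. Klrk1 (NKG2D) did not follow this pattern, with 4.37, 7.20 and 0 TPM across dormant KO libraries, against 12.17, 0 and 0.35 TPM in dormant WT (difference 0.44 ± 1.05, adjusted p = 0.818).

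Both chains that signal for the B cell receptor were higher in dormant KO. Cd79b (chromosome 11, 106311341 to 106314762, minus strand) had values of 104.91, 24.23 and 75.00 TPM across dormant KO libraries, with both WT groups listed at 0 (adjusted p = 7.94e-05 against dormant WT). Cd79a (chromosome 7, 24897381 to 24902197, plus strand) had values of 33.39, 28.69 and 20.39 TPM across dormant KO libraries, with dormant WT listed at 0 (adjusted p = 7.95e-05). The growing groups separated the chains. Cd79a was present in all 6 growing libraries, at 6.80, 2.90 and 7.47 TPM in growing WT and 4.28, 8.71 and 2.76 TPM in growing KO, whereas Cd79b did not exceed 3.44 TPM in them. Ms4a1 (CD20), a B cell surface protein, was at 2.96, 33.41 and 5.67 TPM across dormant KO libraries, against 0.02, 0.02 and 2.24 TPM in dormant WT; the groups did not overlap, yet the difference of 2.69 ± 0.90 was not called (adjusted p = 0.0508). Ms4a1 overlaps an antisense gene in the annotation, as do Bank1, Cd22 and Pax5. Bank1, a B cell scaffold protein, was at 12.64, 7.29 and 0.05 TPM against 0.04, 3.18 and 0 TPM (adjusted p = 0.225). Cd22, an inhibitory B cell receptor, was at 2.46, 17.29 and 0.02 TPM across dormant KO libraries and no more than 0.02 TPM elsewhere, and Pax5, the transcription factor of B cell identity, did not exceed 1.42 TPM.

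The genes of antibody secretion were called as well. Jchain, which joins the units of secreted IgM and IgA (chromosome 5, 88519809 to 88527891, minus strand), had values of 44.63, 90.77 and 76.46 TPM across dormant KO libraries, against 0, 4.55 and 0 TPM in dormant WT, a difference of 5.28 ± 0.82 (adjusted p = 0.000642). Mzb1, a chaperone of the antibody assembly line, was at 27.67, 34.15 and 35.34 TPM across dormant KO libraries, with dormant WT listed at 0 (adjusted p = 0.000625). Mzb1 overlaps another protein-coding gene on the same strand in the annotation.

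**Figure D2:**
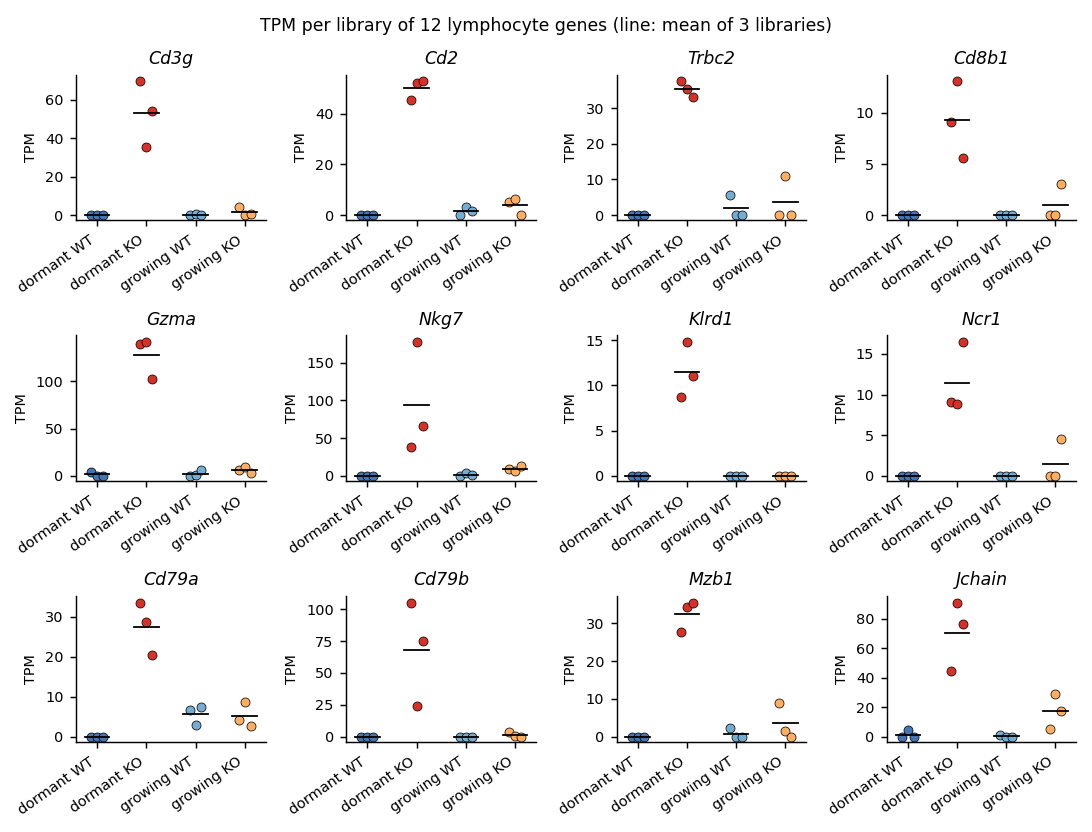
TPM (vertical axes, linear) of 12 members in each library of the 4 groups, with a line at the mean of 3 libraries. The 12 are among the 15 of 31 members for which every dormant KO library lay above the 9 other libraries. By this choice each dormant KO point lies above all points of the other groups in every panel. Members with overlapping groups, such as Lck, Txk and Klrk1, are not shown. Growing KO points of Jchain reach 28.72 TPM.

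The state comparison within KO hosts lies within 1 library batch. Of 22 members tested, 13 were called higher in dormant than in growing KO libraries and 0 lower, against 8.31% of all genes called higher and 9.48% lower. Without the filter 13 of 31 were called higher, against 3.7% of genes. Of these, 11 were called in both, Cd3d and Ltb dropped out, and Gzmb and Klrb1c came in. Both comparisons use the same dormant KO libraries. Among the T cell genes, Cd3g differed by 4.64 ± 0.62 (adjusted p = 0.000335), Cd2 by 3.75 ± 0.74 (adjusted p = 0.00405) and Trbc2 by 3.99 ± 0.98 (adjusted p = 0.0136). Ltb, at 0, 2.48 and 2.30 TPM in growing KO, was called here (3.72 ± 1.12, adjusted p = 0.0373). This call was lost in 11 of 25 alternatives, among them no filter (adjusted p = 0.098) and leaving out any 1 library of dormant KO, growing WT or growing KO (adjusted p of 0.000675 to 0.135 over the alternatives). Cd3d was called (1.95 ± 0.60, adjusted p = 0.0427) although its groups overlapped, and the call was lost in 11 of 24 alternatives, with an adjusted p of 0.119 without the filter and 0.0148 to 0.168 over the alternatives. The libraries whose removal ended the Cd3d call were dormant KO replicates 1 and 3, each growing WT library and growing KO replicates 2 and 3. Gzma differed by 4.23 ± 0.86 (adjusted p = 0.00479), and Nkg7, at 8.76, 6.60 and 13.25 TPM in growing KO, by 2.94 ± 0.71 (adjusted p = 0.0122). Cd79b differed by 5.04 ± 0.67 (adjusted p = 0.000312), Cd79a by 2.28 ± 0.55 (adjusted p = 0.0123) and Mzb1, at 9.04, 1.55 and 0 TPM in growing KO, by 3.49 ± 0.78 (adjusted p = 0.00809). Cd8b1 (adjusted p = 0.00496), Ncr1 (adjusted p = 0.00719) and Klrd1 (adjusted p = 2.38e-05) completed the 13. Leaving out 1 library also ended the calls of Trbc2 (growing KO replicate 1 or 3), Nkg7 (dormant KO or growing KO replicate 2) and Cd79a (dormant KO replicate 1 or growing KO replicate 3). With a pseudocount of 0.1 the calls of Trbc2, Cd2 (adjusted p = 0.053), Mzb1 (adjusted p = 0.0676), Cd3d (adjusted p = 0.0965), Gzma (adjusted p = 0.102), Nkg7 (adjusted p = 0.118) and Ltb (adjusted p = 0.119) were lost. Jchain, at 5.34, 28.72 and 17.48 TPM in growing KO, was lower there in every library than in dormant KO but was not called (2.18 ± 0.82, adjusted p = 0.0895), nor was Trac (1.50 ± 0.65, adjusted p = 0.142).

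Growing cells of the 2 kinds of host were compared next. No member was called by limma, against 0.715% of all genes called higher, and 2 of the 22 tested members had an unadjusted p below 0.05, against 7.53% of all genes. These were Jchain, at 1.42, 0 and 0 TPM in growing WT (difference 3.50 ± 0.82, adjusted p = 0.0886), and Nkg7, at 0, 3.81 and 1.38 TPM (difference 2.18 ± 0.71, adjusted p = 0.319). With Cd3d and Bank1 they were the 4 members of which every growing KO library exceeded every growing WT library, against 6.59% of the 25916 genes. An alternative fit with weights per library called 2 members higher, and in that fit the share of all genes called higher was 2.28%. The summed TPM of the 31 members did not overlap between the growing groups. Marker sums of other cell types, described below, were also higher in growing KO without overlap. Alveolar type 2 markers summed to 452.37 to 462.17 TPM against 51.11 to 87.9 TPM in growing WT. The same held for macrophage, fibroblast, endothelial, neutrophil, dendritic cell and erythroid markers, whereas the sums of mammary carcinoma markers overlapped. The median difference without the filter was 0.67 over the members and 0 over all genes.

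Dormant and growing cells of WT hosts were likewise compared within 1 batch. No member was called higher in dormant WT, against 1.85% of all genes, and 1 of 22 was called lower, against 5.67% of all genes. That gene was Cd79a, listed at 0 in dormant WT (adjusted p = 0.0128). The call was lost without growing WT replicate 1 or growing WT replicate 3. Txk was higher in every dormant WT library than in growing WT (1.11, 0 and 0.05 TPM), with a difference of 2.56 ± 0.80 that was not called (adjusted p = 0.0717).

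The difference between states was larger in KO than in WT hosts for 10 of the 22 members, as tested by the interaction term, against 6.18% of all genes called higher. They were Cd3g, Cd8b1, Trbc2, Cd2, Nkg7, Gzma, Klrd1, Cd79a, Cd79b and Mzb1. Without the filter 7 members were called, against 2.41% of genes called higher. Of the 10, 6 remained, the calls of Cd8b1, Gzma, Mzb1 and Trbc2 were lost, and Klrb1c came in.

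**Figure D3:**
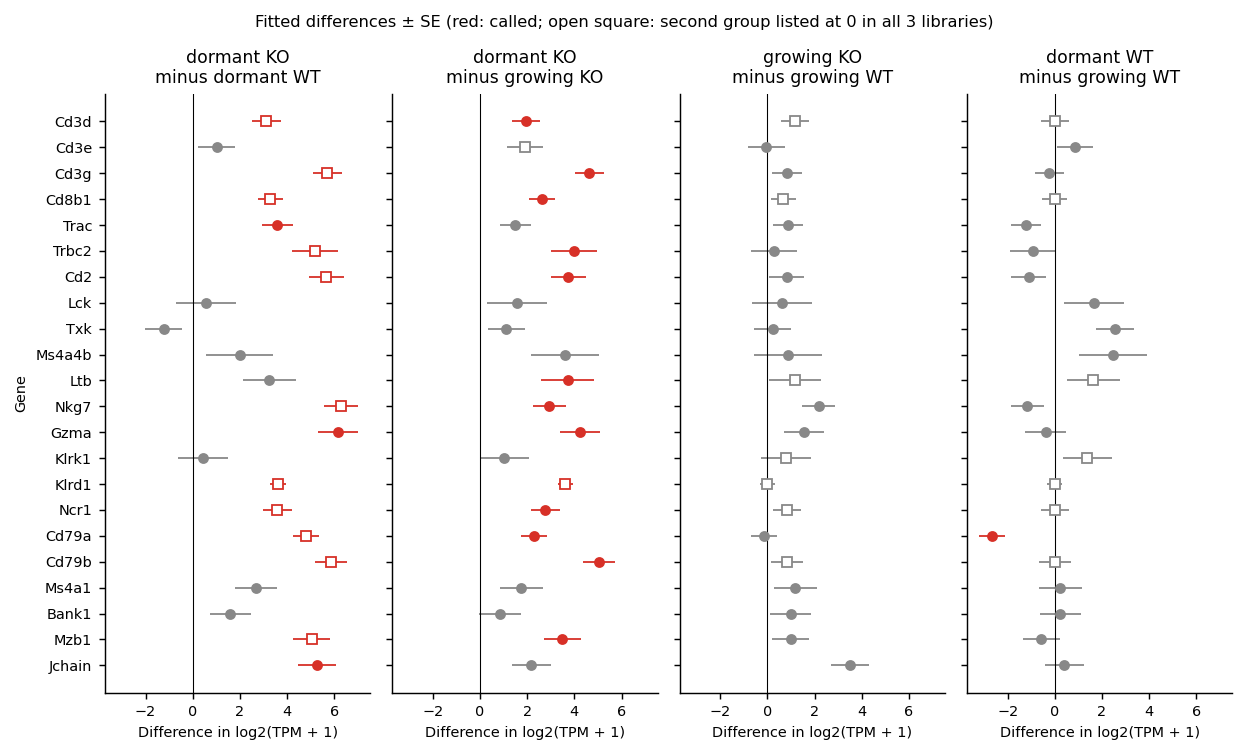
Fitted differences in log2(TPM + 1) with their SE for the 22 members tested in 4 comparisons (panels), with called members in red and open squares where the second group is listed at 0 in all 3 libraries, so that the size depends on the pseudocount. Called members lie to the right of 0 in both dormant KO panels, and the growing panel holds no red symbol.

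Further genes of the same cell types were read from lists written for this purpose with earlier results of these data known. Of 22 further T cell genes, 5 were called higher and 0 lower in dormant KO against dormant WT (13 tested). Beside these and the following list counts stand 12.9% of all genes called higher and 9.39% lower, or 5.64% and 4.2% without the filter. Without the filter 4 of the T cell genes were called. The called genes included Ccr7, a homing receptor for lymph nodes, at 15.14, 17.35 and 19.62 TPM and listed at 0 in dormant WT (adjusted p = 0.00117), Trbc1 (3.67 ± 0.86, adjusted p = 0.00861) and Skap1, an adaptor of T cell adhesion (3.08 ± 0.65, adjusted p = 0.00465). Foxp3, the factor of regulatory T cells, did not exceed 0.14 TPM in any library. Of 19 further B cell genes, 10 were called higher and 0 lower (13 tested), and 7 were called higher without the filter. Vpreb3, a B lineage gene, was at 34.45, 27.86 and 10.13 TPM across dormant KO libraries and listed at 0 elsewhere (adjusted p = 3.26e-05), and Fcmr, a receptor for IgM, was at 18.04, 35.94 and 6.54 TPM and listed at 0 in dormant WT (adjusted p = 0.000644). Ighm, the IgM heavy chain, was called (adjusted p = 0.0272) although dormant WT replicate 3 held 40.87 TPM. Ighm had 36.78, 64.38 and 68.88 TPM across dormant KO libraries and 49.66, 26.51 and 63.36 TPM in growing KO, and these overlapping groups were not called apart (adjusted p = 0.893). Without the filter the Ighm call against dormant WT was lost (adjusted p = 0.0723). Of 7 further plasma cell genes 4 were tested, of which 0 were called by limma in that comparison and 0 had an unadjusted p below 0.05.

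Of 18 further NK and cytotoxic genes, 4 were called higher and 1 lower (9 tested), and 2 higher and 0 lower without the filter. Xcl1, a chemokine of NK and T cells, was at 31.03, 19.67 and 21.74 TPM across dormant KO libraries, with dormant WT listed at 0 (adjusted p = 0.000351). Hcst, the signal adaptor DAP10, differed by 3.82 ± 1.25 (adjusted p = 0.0457, and 0.11 without the filter), and Ctsw, a protease of cytotoxic cells, was listed at 0 in dormant WT (adjusted p = 0.0029). Tigit, an inhibitory receptor, was the gene called lower (−3.14, adjusted p = 0.0255), but the groups overlapped and the call was lost without the filter (adjusted p = 0.0612). Its values were 0.06, 0.52 and 6.7 TPM across dormant KO libraries, against 18.12, 64.86 and 5.68 TPM in dormant WT, and growing libraries held it at 15.44 to 57.31 TPM. Tbx21, a transcription factor of NK and type 1 T cells, was listed at 0 in all 12 libraries. Ccl5, a chemokine that macrophages also make, was higher in dormant WT (285.34 to 486.31 TPM) than in growing WT (10.83 to 35.64 TPM), a difference of 4.22 ± 0.47 (adjusted p = 0.000338), and was at 176.55 to 195.28 TPM in dormant KO.

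Of 14 genes shared by lymphocytes and other leucocytes, 5 were called higher and 0 lower in dormant KO against dormant WT (13 tested), and 5 without the filter. Ptprcap, which binds CD45, was at 22.87, 38.23 and 67.91 TPM across dormant KO libraries, with dormant WT listed at 0 (adjusted p = 0.000246). Coro1a, an actin regulator of leucocytes (4.84, adjusted p = 0.00428), and S1pr1, a receptor for leaving tissue that endothelium also carries (3.69 ± 0.53, adjusted p = 0.000403), were called. Ptprc (CD45), carried by leucocytes in general, had 46.58, 46.42 and 13.53 TPM in dormant WT and overlapped the 23.41, 25.43 and 24.95 TPM of dormant KO, while growing libraries held at most 2.26 TPM. The same dormant WT libraries listed Cd3g, Trbc2, Klrd1 and Cd79b at 0.

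Ligands and targets of the members formed a list of 23 genes, of which 3 were called higher and 1 lower in dormant KO against dormant WT (21 tested). Over all genes 12.9% were called higher and 9.39% lower, so the share of the list is near the background. Without the filter 2 were called higher and 1 lower. Serpinb6b, a serine protease inhibitor, differed by 5.29 ± 0.63 (adjusted p = 0.000104), with 16.65, 79.53 and 42.74 TPM against 0, 0.04 and 0 TPM. Serpinb9, an inhibitor of granzyme B, differed by 2.86 ± 0.88 (adjusted p = 0.0353, and 0.0749 without the filter). Igf2r, a receptor that can take up granzyme B, was lower, at 1.74 to 2.34 TPM against 18.97 to 28.28 TPM (adjusted p = 0.000568). Raet1e, a ligand of NKG2D, was listed at 0 in dormant WT, whereas growing WT held 1.84, 13.28 and 18.21 TPM, and this difference was called (adjusted p = 0.018). The class II genes H2-Aa and H2-Ab1 present antigen to CD4 T cells. They were higher in dormant than in growing WT (4.74 ± 0.35, adjusted p = 1.24e-05, and 4.28 ± 0.24, adjusted p = 1.25e-06) and in growing KO than in growing WT (2.44 ± 0.35, adjusted p = 0.00538, and 1.89 ± 0.24, adjusted p = 0.00256). In the first comparison 3 of the 21 tested genes were called higher and 2 lower, against 1.85% and 5.67% of all genes. In the second 2 were called higher and 0 lower, against 0.715% of all genes called higher.

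Markers of other cells in the lung and blood moved with the lymphocyte genes, and their part in these results was not tested. Against dormant WT, dormant KO libraries had higher calls for 5 of 6 alveolar type 2 markers, 5 of 6 endothelial markers and 3 of 6 fibroblast markers, with all of these tested. Calls were also higher for 4 of 5 tested erythroid markers (6 in the list), 4 of 5 tested neutrophil markers (7 in the list, 1 lower) and 1 of 2 tested dendritic cell markers (8 in the list). Without the filter the neutrophil calls became 3 higher and 0 lower and the endothelial calls 4, and the other counts of these lists did not change. Alveolar type 2 markers summed to 39858.99 to 42256.47 TPM in dormant KO and 41.76 to 141.25 TPM in dormant WT, endothelial markers to 543.97 to 658.32 and 11.26 to 64.94 TPM, and neutrophil markers to 4051.88 to 4365.52 and 332.05 to 929.44 TPM. Erythroid markers summed to 50831.17 to 56263.62 and 8988.25 to 13030.52 TPM, fibroblast markers to 1267.41 to 1573.32 and 15.24 to 88.85 TPM, and dendritic cell markers to 13.26 to 28.14 and 0 to 0.47 TPM. Macrophage markers did not follow, with 523.17 to 734.93 TPM in dormant KO and 706.17 to 960.63 TPM in dormant WT, and 0 of 9 tested (10 in the list) were called by limma (0 at an unadjusted p below 0.05). Growing WT held 12.85 to 25.3 TPM of macrophage markers. Against growing WT, 5 of 9 were called higher in dormant WT (1.85% of all genes). In growing KO 2 of 9 were called higher (0.715% of all genes), and 1 without the filter. Mammary carcinoma markers summed to 1845.45 to 2247.28 TPM in dormant KO and 31778.62 to 43825.69 TPM in the other 9 libraries, and Spp1 made up most of this sum, at 1235.89 to 1508.76 TPM in dormant KO and 28979.98 to 39951.48 TPM elsewhere. Of these 6 markers, Krt8, Spp1 and Akr1c18 were called lower, and Vim and Krt18 were not called. Epcam, at 3.42, 0.27 and 5.34 TPM across dormant KO libraries, was called higher with the filter (adjusted p = 0.0401) and not without it (adjusted p = 0.0892). Krt18 overlapped between the groups, with 158.54 to 248.67 TPM in dormant KO and 130.6 to 231.14 TPM in dormant WT. Expressed as a share of the dormant KO mean, growing KO held 10.459% of the member sum, 1.111% of the alveolar type 2 sum, 5.502% of the endothelial sum, 3.074% of the neutrophil sum and 14.185% of the macrophage sum. The shares were 24.583% for the fibroblast sum, 15.964% for the dendritic cell sum and 13.545% for the erythroid sum.

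**Figure D4:**
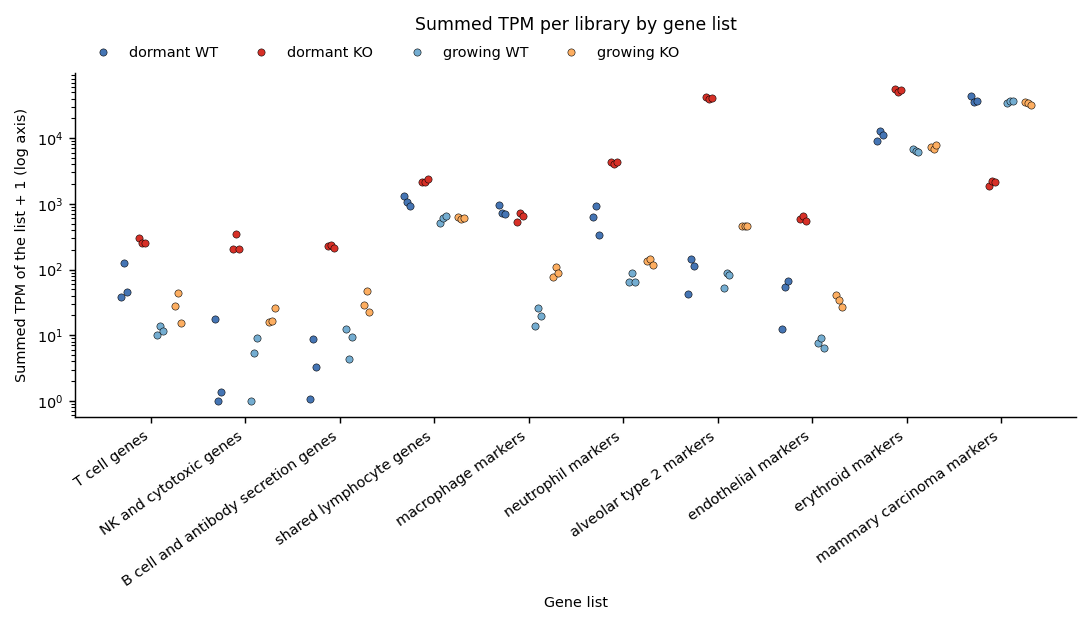
Summed TPM + 1 (log axis) of 10 gene lists in each library, coloured by group. Dormant KO points are above the other groups in the lymphocyte lists and in the neutrophil, alveolar type 2, endothelial and erythroid lists, are near dormant WT in the macrophage list and are lowest in the mammary carcinoma list.

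The likeness of members across the 12 libraries varied, and all pairs share the split between dormant KO and the rest. Over 435 pairs of the 30 members above 0 in any library, the median Pearson's r of log2(TPM + 1) was 0.5859. The mean r with the other members was 0.0704 for Txk, 0.2842 for Lck and 0.2844 for Klrk1, against 0.7337 for Klrd1. Among the closest pairs, Cd79b was most like Cd3g (r = 0.9878), Klrd1 most like Cd4 (r = 0.9713) and Ncr1 most like Cd8b1 (r = 0.9626). The highest value, 0.9946 for Prf1 and Cd8a, came from genes that were at or near 0 in nearly all libraries. These values are descriptions over 12 libraries and were not tested.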

How the data were processed

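RNA of D2A1 cells sorted from mouse lungs was sequenced in 12 libraries. Per the labels' processing notes, the authors used bcl2fastq 2.20, cutadapt 1.18, STAR 2.5.2b and RSEM 1.3.3, and DESeq2 downstream. The study's methods state other versions of some tools and Smart-seq2 libraries from small sorted aliquots, whereas the labels name a TruSeq kit. The deposited values are TPM, in which the authors divided out gene length and library total, so depth is unknown and no counting interval could be given. Reads that fit several similar genes are divided among them by RSEM's estimate. A further 30 per-sample columns could not be matched to a labelled sample and were left out.

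No further scaling was applied, and log2(TPM + 1) was fitted for all 12 libraries with limma 3.58.1 (R 4.3.3, eBayes with a trend, 1 mean per group, 8 residual degrees of freedom). The spread of each gene was shared by the 4 groups, and a group listed at 0 in all its libraries added none to it. For such genes the p-value does not measure the spread of the dormant KO libraries alone. The filter was 1 TPM or more in 3 or more libraries. P-values were two-sided and adjusted by Benjamini-Hochberg over all 13002 genes tested. Differences of low genes are understated on this scale. With 3 libraries against 3, an exact permutation test of a single gene cannot go below 0.1. Scripts were tested on simulated data. Every member is accounted for; values per library are given where a group mean reached 10 TPM or a call was made, and of other lists up to 3 genes per comparison are named, the called ones with the largest difference, with further genes singled out after their values were seen. The members and lists were chosen with earlier results of these data known, and the promoter motifs were chosen late. Coordinates are those of GENCODE M21 on GRCm38. Alternatives were other pseudocounts, filters, scalings, thresholds, library weights, fits of the compared groups, replicate blocks and leaving out each library; a rescaling without abundant lists and a fixed block were chosen after seeing the data.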

Additional observations from a re-analysis of the deposited data

Results flagged for a closer look

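For 10 members the difference between dormant and growing cells was larger in KO than in WT hosts by a test of that difference itself (the interaction term in limma, on the log2(TPM + 1) scale, with host and batch not separable). Most of these genes are listed at 0 in one or more groups, so the sizes depend on the pseudocount and are no folds. Among T cell genes the interaction was 4.87 ± 0.88 (SE) for Cd3g (adjusted p = 0.00502), 4.90 ± 1.38 for Trbc2 (adjusted p = 0.0449), 4.85 ± 1.05 for Cd2 (adjusted p = 0.0125) and 2.62 ± 0.76 for Cd8b1 (adjusted p = 0.05). Among cytotoxic and NK genes it was 4.12 ± 0.999 for Nkg7 (adjusted p = 0.0224), 4.62 ± 1.22 for Gzma (adjusted p = 0.0331) and 3.62 ± 0.45 for Klrd1 (adjusted p = 0.000638). Among B cell and antibody secretion genes it was 4.94 ± 0.77 for Cd79a (adjusted p = 0.0025), 5.04 ± 0.95 for Cd79b (adjusted p = 0.00604) and 4.06 ± 1.10 for Mzb1 (adjusted p = 0.0377). Over all genes 6.18% were called higher by the interaction term. Every dormant KO library lay above the 9 other libraries for each of the 10, against 5.49% of all genes. The 10 were called from these same values, so this separation is a description and no further test. Without the filter the calls of Gzma (adjusted p = 0.0707), Mzb1 (adjusted p = 0.0887), Trbc2 (adjusted p = 0.113) and Cd8b1 (adjusted p = 0.142) were lost. Trbc2, Cd8b1, Cd3g, Klrd1 and Cd79b passed the filter only through dormant KO libraries. Over 24 alternatives, the calls of Trbc2 and Cd8b1 were lost in 15 each, that of Gzma in 13, Mzb1 in 11, Nkg7 in 5 and Cd2 in 1. Leaving out any 1 library ended the Trbc2 call except for growing KO replicate 2, and the Cd8b1 call except for growing KO replicate 3. The Gzma call held without dormant WT replicate 1 or 2 or growing WT replicate 1, and the Mzb1 call without any 1 dormant WT library or growing KO replicate 1. The Nkg7 call was lost without growing WT replicate 2 or 3 or growing KO replicate 1 or 2. Cd3g, Cd79a and Cd79b kept their calls in all 24 alternatives, with adjusted p of at most 0.0328, 0.0137 and 0.0245. Klrd1 kept its call in the 21 alternatives in which it was tested, with adjusted p of at most 0.00466. Without any 1 dormant KO library Klrd1 failed the filter and was not tested, so those alternatives could not end its call.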

How the results depend on the processing

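The count of members called higher in dormant KO against dormant WT was 14, and 14 to 16 under the alternatives of pseudocount, filter, scaling and fit. Weights per library gave 9, losing Cd3d, Cd8b1, Trac, Trbc2 and Ncr1, and leaving out 1 library gave 13 to 16 (2160 to 3617 calls over all genes, against 2898). Ltb was called in 4 alternatives and Ms4a1 in 6. For dormant against growing KO the count of 13 became 6 with a pseudocount of 0.1 (all genes 2313 to 1981) and 9 to 15 without 1 library (1551 to 3117). In growing cells, 0 became 2 with library weights (all genes 127 to 516) and 0 to 1 without 1 library (1 without dormant WT replicate 2). In WT hosts, 1 became 0 with a pseudocount of 5 (all genes 977 to 758), 2 with quantile normalization (967), 0 with library weights (310) and 0 to 2 without 1 library (0 without growing WT replicate 1 or 3; 2 without dormant WT replicate 3, dormant KO replicate 1 or dormant KO replicate 2). The interaction count of 10 became 6 with a pseudocount of 0.1 (all genes 1312 to 1240), 4 with library weights (879) and 5 to 8 without 1 library (861 to 1937). The cause of these moves was not tested.

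The difference of Lck between dormant groups reversed to −0.90 without dormant WT replicate 3 (up to 1.51 without dormant WT replicate 2). That of Klrk1 reversed to −0.14 with quantile normalization, −0.26 without dormant WT replicate 2, −0.04 without dormant WT replicate 3 and −0.17 without dormant KO replicate 2 (up to 1.60 without dormant WT replicate 1). The median difference of all genes between the dormant groups was 0.169, 0.521 with median-ratio scaling and −0.144 with quantile normalization, and calls over all genes were 57.9%, 74.1% and 50.1% higher. Deviations of same-numbered libraries from their group means had correlations of −0.014 to 0.021, which cannot tell whether these libraries share an animal. Between dormant and growing KO each library correlated most with its own number (0.021, 0.019 and 0.011 for replicates 1 to 3). The replicate block left the dormant count at 14, and a fixed block gave 7 interaction calls.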
